A study of Mus musculus with 25 samples.

Results

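Sphk1, Sphk2, Sgpp1, Sgpp2, Sgpl1, Spns2 and Apom, the genes that make, break down and carry sphingosine-1-phosphate (S1P), were followed through 8 groups of mouse lung profiled on 25 expression arrays. They were taken by symbol: every probe set annotated with exactly 1 of these names was a member, which gave 7 of 18193 genes and 13 of 45101 probe sets. Of the probe sets of a gene, the brightest on average over the 25 arrays stood for it. The representatives of 6 genes were above the filter on low signal that left 12937 genes, and Apom was below it and was not tested in that fit.

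The mice were wildtype C57BL/6J females aged 14 to 17 weeks and weighing 20 to 25 g. In the groups with radiation, the thorax received a single dose of 25 Gy. The groups were radiation+fTyS, radiation+FTY, radiation+SEW, radiation alone, fTyS, FTY and SEW, with 3 arrays each, and a PBS-treated control group with 4. Compounds were given intraperitoneally at 0.1 mg/kg 2 times a week. FTY is FTY720 (fingolimod), a sphingosine analogue that the body phosphorylates before it acts on S1P receptors. fTyS is (S)-FTY720-phosphonate, which carries a phosphonate in place of the phosphate. SEW, or SEW-2871, activates the receptor S1pr1 selectively and is not a sphingosine analogue. How long after irradiation the lungs were taken is not given in the sources used here. The labels do not state whether replicate arrays came from separate animals, so p-values measure the spread between arrays, which may be technical.

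S1P is a lipid signal made when a sphingosine kinase, Sphk1 or Sphk2, phosphorylates sphingosine. The phosphatases Sgpp1 and Sgpp2, in the endoplasmic reticulum, return it to sphingosine, and the lyase Sgpl1 cleaves it irreversibly, which is how the lipid leaves the sphingolipid pathway. Spns2 exports S1P from endothelial cells, and apolipoprotein M (Apom) carries it in plasma. S1P acting on S1pr1 helps keep the endothelial lining of lung vessels tight.

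Across the 8 groups, 3 of the 6 tested members differed in level: Sphk2 (adjusted p = 0.00272), Sgpp1 (adjusted p = 0.00537) and Sgpp2 (adjusted p = 0.00844), by limma's moderated F test with Benjamini-Hochberg adjustment over all genes. The adjusted p was 0.108 for Sgpl1, 0.121 for Spns2 and 0.146 for Sphk1. Of all genes tested, 23.6% passed the same threshold, an adjusted p of at most 0.05. Over the 20 comparisons between groups, 16 of the 120 values of the 6 members passed it, and are described as called, beside 5.45% of the values of all genes over the same comparisons. Many of these comparisons share arrays. Values are signals on a linear scale, and tests and fold changes are on the log2(signal + 16) scale, which understates the change of dim probe sets. Precision is limited by how few arrays each group has.

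The promoters of Sgpp2, Sgpp1 and Sphk2 are printed because these are the members whose level differed among the groups. Each line gives 250 bases before an annotated start, 5′ to 3′ on the gene's strand, from RefSeq on GRCm38.p6. The Sgpp2 window is chr1:78310096-78310345 on the plus strand, the Sgpp1 window chr12:75735730-75735979 on the minus strand and the Sphk2 window chr7:45718003-45718252 on the minus strand. The Sgpp2 window lies inside the annotated span of the gene, which begins at 78309549. Capitals mark matches, on either strand, to the GC box (GGGCGG), the CCAAT box (CCAAT), the TATA box (TATAAA), the E-box (CACGTG) and the core of a cAMP response element (TGACG).
Sgpp2: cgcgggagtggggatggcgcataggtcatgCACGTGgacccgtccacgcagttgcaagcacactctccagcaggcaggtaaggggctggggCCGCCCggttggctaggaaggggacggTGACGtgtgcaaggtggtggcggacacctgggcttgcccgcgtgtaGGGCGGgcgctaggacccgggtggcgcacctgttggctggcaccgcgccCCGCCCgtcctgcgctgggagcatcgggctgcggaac
Sgpp1: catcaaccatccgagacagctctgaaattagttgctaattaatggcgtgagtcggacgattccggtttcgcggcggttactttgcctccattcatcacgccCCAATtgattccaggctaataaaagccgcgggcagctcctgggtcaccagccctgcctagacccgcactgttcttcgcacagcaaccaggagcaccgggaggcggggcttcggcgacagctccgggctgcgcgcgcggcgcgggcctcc
Sphk2: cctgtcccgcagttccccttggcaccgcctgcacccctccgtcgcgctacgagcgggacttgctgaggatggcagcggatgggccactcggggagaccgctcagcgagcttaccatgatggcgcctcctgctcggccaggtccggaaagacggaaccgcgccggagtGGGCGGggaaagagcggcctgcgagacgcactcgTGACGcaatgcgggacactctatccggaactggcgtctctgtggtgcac
The Sgpp2 window held 3 GC boxes, an E-box and a TGACG core, the Sphk2 window a GC box and a TGACG core, and the Sgpp1 window a single CCAAT box. Among 32851 such windows of all genes, 32.74% held a GC box, 33.85% a CCAAT box, 12.37% a TATA box, 6.02% an E-box and 17.77% a TGACG core. No match to these motifs overlapped another in the 3 windows. Guanine and cytosine made up 70.8% of the Sgpp2 window, 67.6% of the Sphk2 window and 61.2% of the Sgpp1 window, beside a median of 52.4% over all windows. The arrays measure transcripts and not promoters, so the matches are a description of these letters only. A second annotated start of Sphk2, with its window at chr7:45715208-45715457 on the minus strand, had 2 GC boxes and 2 CCAAT boxes and is not printed.

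Lung identity was clear in every array, since 7 of 7 lung epithelial markers (Sftpc, Sftpb, Sftpa1, Sftpd, Scgb1a1, Ager and Cldn18) were above the filter and their mean log2(signal + 16) stayed between 12.8 and 13.0. Markers of tissue next to the lung varied more: the mean of 6 skeletal muscle markers ran from 6.84 to 12.5 log2 units over the arrays, and that of 4 adipocyte markers from 8.02 to 12.0. Control replicate 4 had a neutrophil marker mean of 8.86 log2 units, against 7.56 to 7.995 in the other controls. In whole lung, fewer cells of a type and less RNA per cell cannot be told apart.

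Sgpp2, the second S1P phosphatase, had its highest mean in control lungs and lower means in all 7 treated groups. In irradiated lungs its signal was 810.1, 826 and 901 with fTyS, 674, 759.7 and 666 with FTY, 860.1, 658 and 933 with SEW, and 639, 570.3 and 619 with no compound. In lungs without radiation it was 587, 641 and 693 with fTyS, 695, 774 and 468 with FTY, 850.0, 833 and 701 with SEW, and 1042, 896, 1029 and 926 in control. Every array of the radiation, fTyS, FTY and SEW groups was below every control array. FTY replicate 3 was the lowest of all 25 arrays.

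Radiation alone lowered Sgpp2 to 609.4 ± 35.4, against 974 ± 73.0 in control (SD, n = 3 and 4), a log2 fold change of -0.66 (95% confidence interval -0.94 to -0.38, limma adjusted p = 0.00581). It was the only one of the 6 members called in this comparison, in which 4.4% of all genes were called. FTY alone averaged 646 ± 159 (SD, n = 3), a log2 fold change against control of -0.61 (-0.89 to -0.33, adjusted p = 0.0224). Without FTY replicate 3 this value was -0.40 with an adjusted p of 0.117, and the call also ended without control replicate 3. fTyS alone averaged 640.2 ± 53.1 (SD, n = 3) and differed from control by -0.59 (-0.87 to -0.32), just outside the threshold with an adjusted p of 0.0557, and SEW alone by -0.29 (-0.57 to -0.01, adjusted p = 0.145).

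With a compound added to radiation, Sgpp2 was nearer to control in mean signal, but no difference from radiation alone was called. With each of the 3 compounds, no array overlapped the radiation group. Radiation+fTyS lungs averaged 846 ± 48.7 (SD, n = 3), and the difference of 0.46 log2 units from radiation alone (0.17 to 0.76) had an adjusted p of 0.138. The difference was 0.40 (0.10 to 0.70, adjusted p = 0.142) for radiation+SEW and 0.19 (-0.10 to 0.49, adjusted p = 0.426) for radiation+FTY. Counts of called members against radiation alone were 0 of 6 with each compound, where 0.858%, 2.48% and 3.02% of all genes were called for fTyS, SEW and FTY in that order. The unadjusted p was under 0.05 for 2 members with fTyS, for 1 with SEW and for 1 with FTY. In the same order it was under 0.05 for 1610, 2236 and 3010 of the 12937 genes.

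Whether the change of Sgpp2 with radiation depends on a compound was tested as the interaction of radiation with each compound. The log2 change with radiation was 0.39 on top of fTyS, 0.14 on top of FTY and 0.03 on top of SEW, against -0.66 with no compound. The interaction was 1.06 for fTyS (0.65 to 1.46, adjusted p = 0.0178), 0.80 for FTY (0.40 to 1.21, adjusted p = 0.0195) and 0.69 for SEW (0.28 to 1.10, adjusted p = 0.0240). Sgpp2 was the only member called in the fTyS interaction and in the FTY interaction, where 1.35% and 6.84% of all genes were called. In the SEW interaction, where 13.9% of all genes were called, Sgpp1 was called as well. All 3 interactions use the same radiation and control arrays. The fTyS interaction had an adjusted p of 0.0509 without radiation replicate 2, and the FTY interaction one of 0.0557 without radiation+FTY replicate 2. The SEW interaction lost its call with SEW replicate 3, radiation replicate 2 or radiation+SEW replicate 3 left out (largest adjusted p 0.0781).

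**Figure D1:**
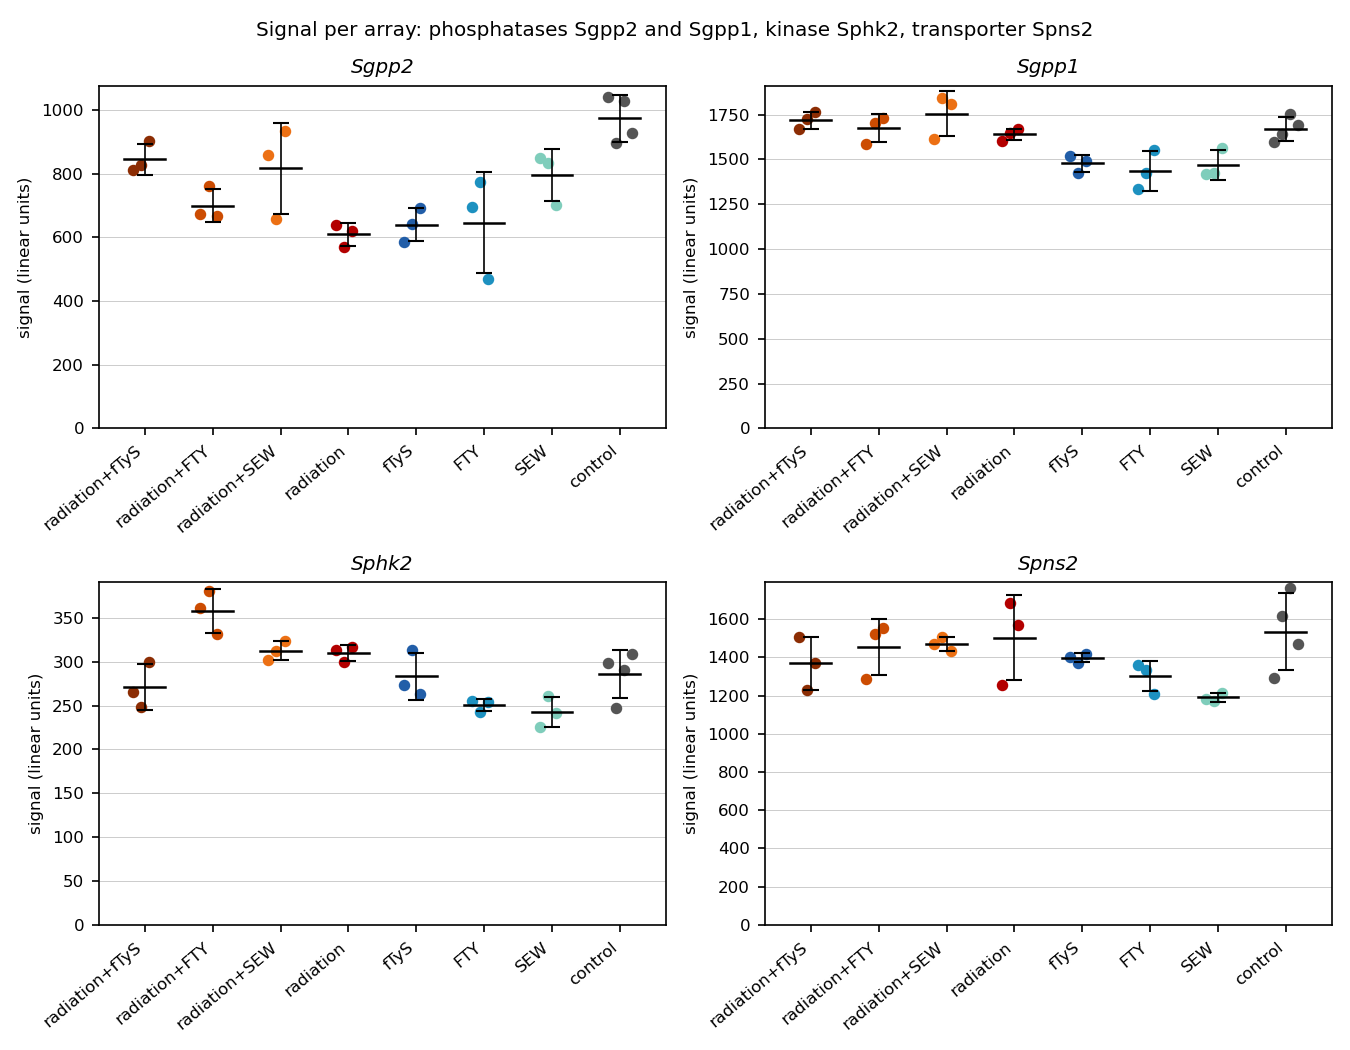
Signal of Sgpp2, Sgpp1, Sphk2 and Spns2 in each of the 25 arrays (linear units), by group, with the group mean and SD as bars. Sgpp2 was below the lowest control array, 896, in all 3 arrays of the radiation, fTyS, FTY and SEW groups, and the representative probe set of Sphk2 was highest with radiation+FTY.

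Cell type markers were read beside the Sgpp2 values. All 5 tested neutrophil markers of 8 listed were higher in radiation lungs. The summed signal of the 6 that had a probe set was 13406 to 24947 there, against 1792 to 5947 in control. Of the alveolar type 2 markers, 0 of the 5 tested were called, with a summed signal of 36121 to 37100 in radiation lungs and 36820 to 40052 in control. As mean log2(signal + 16) they were 12.70 to 12.73 in radiation lungs and 12.74 to 12.88 in control, without overlap. The median log2 fold change of these 5 was -0.03 in radiation lungs and -0.13 in FTY lungs, both against control. Over all 25 arrays, Pearson's r between Sgpp2 and the alveolar type 2 mean was 0.68, a description of arrays that share groups. The part of neutrophils and of alveolar type 2 cells in the Sgpp2 result was not tested.

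**Figure D2:**
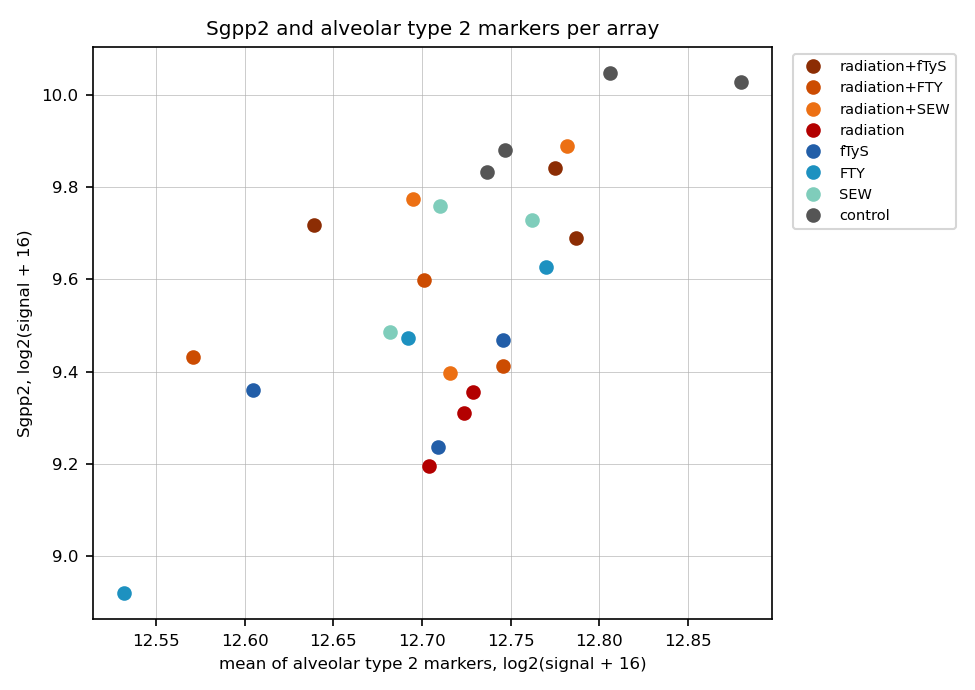
Sgpp2 against the mean of 5 alveolar type 2 markers in each of the 25 arrays, both in log2(signal + 16), coloured by group. The 3 radiation arrays lie at marker means of 12.70 to 12.73, below the 4 control arrays at 12.74 to 12.88, and low on the Sgpp2 axis.

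Sgpp1, the other S1P phosphatase, was lower in its representative probe set in lungs given any compound without radiation. In irradiated lungs its signal was 1669, 1723 and 1763 with fTyS, 1587, 1703 and 1733 with FTY, 1613, 1845 and 1812 with SEW, and 1603, 1648 and 1667 with no compound. In unirradiated lungs it was 1518, 1423.0 and 1493 with fTyS, 1333, 1424 and 1552 with FTY, 1418, 1426 and 1565 with SEW, and 1596, 1640.0, 1754 and 1690.4 in control. All 9 arrays with a compound alone were below all 4 control arrays and all 3 radiation arrays in this probe set. In its probe set 1420821_at they were also below every control array, but fTyS replicate 3, at 581, was above every radiation array (536 to 580). In its probe set 1450015_x_at the means were 222 with fTyS, 251 with FTY and 253 with SEW, against 257 in control, and each group overlapped control.

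The shifts were small. Sgpp1 fell by 0.18 log2 units with SEW (interval -0.30 to -0.06, adjusted p = 0.0381) and by 0.22 with FTY (-0.34 to -0.10, adjusted p = 0.0462), each against control. With fTyS the difference was -0.17 (-0.29 to -0.05, adjusted p = 0.176). Radiation alone differed from control by -0.03 (-0.15 to 0.09, adjusted p = 0.889). The FTY call held in 7 of 25 fits that left out 1 array, and the arrays whose removal ended it included all of the FTY group and control replicates 2, 3 and 4 as well as arrays of each other group. The SEW call ended without control replicate 2, 3 or 4, or without SEW replicate 1 or 2.

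On top of a compound, radiation raised Sgpp1. The log2 fold change was 0.25 for radiation+SEW against SEW (0.13 to 0.38, adjusted p = 0.00842) and 0.22 for radiation+FTY against FTY (0.09 to 0.35, adjusted p = 0.0226). The SEW call ended without radiation+SEW replicate 3 (adjusted p 0.0505), and the FTY call without FTY replicate 1 or 2 or radiation+FTY replicate 2 or 3 (largest adjusted p 0.108). For radiation+fTyS against fTyS it was 0.22 (0.09 to 0.34, adjusted p = 0.118). In the fit with the replicate number as a block, this last value was also 0.22 with an adjusted p of 0.0405. In that fit 1 of 6 members was called in this comparison in place of 0. The block puts the same replicate effects on all 25 arrays. Residuals of arrays with the same number correlated over 0.1 in all pairs of these 2 groups, but in only 5 of 16 comparisons. The block is therefore not borne out for the whole fit. The interaction with SEW was 0.28 (0.10 to 0.45, adjusted p = 0.0315), that with FTY 0.25 (adjusted p = 0.0782) and that with fTyS 0.24 (adjusted p = 0.155). The SEW interaction lost its call with control replicate 3, SEW replicate 1 or 2, radiation replicate 1, or radiation+SEW replicate 2 or 3 left out (largest adjusted p 0.0889). Averaged over the 4 backgrounds, radiation raised Sgpp1 by 0.17 (0.10 to 0.23, adjusted p = 0.000771), and this call held in 25 of 25 fits that left out 1 array. With the mean of all its probe sets in place of the brightest, the adjusted p was 0.0835.

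The probe sets of Sgpp1 did not move together. Over the arrays, the representative 1420822_s_at had a Pearson's r of 0.82 with 1420821_at, but 0.14 with 1450015_x_at, and the r between 1420821_at and 1450015_x_at was 0.12. In a fit of all 27022 probe sets above the filter, 1420821_at differed from control by -0.28 with SEW (adjusted p = 0.0438) and by -0.28 with FTY (adjusted p = 0.0900), close to the representative. Its radiation+FTY against FTY value was 0.34 (adjusted p = 0.0279), and its radiation+SEW against SEW value, at 0.27, missed the threshold (adjusted p = 0.0655). With the mean of all 3 probe sets, Sgpp1 was 0.13 for radiation+SEW against SEW (adjusted p = 0.407) and 0.048 for radiation+FTY against FTY (adjusted p = 0.771). That rule also ended the Sgpp1 calls for SEW against control, FTY against control and the SEW interaction. Under the same rule Sphk2 was called in these, at -0.40 (adjusted p = 0.00276), -0.52 (adjusted p = 0.00233) and 0.45 (adjusted p = 0.0116). 1450015_x_at gave -0.42 for radiation+FTY against FTY (adjusted p = 0.160), the opposite direction. Its lowest array was 124 in radiation+FTY replicate 1, and its highest 325 in radiation+fTyS replicate 2.

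That probe set was called in 1 comparison, radiation+fTyS against radiation+FTY. Its signal was 318, 325 and 290.5 in radiation+fTyS lungs, against 124, 220.0 and 222 in radiation+FTY lungs, a log2 fold change of 0.72 (adjusted p = 0.0309, 6.61% of all probe sets called). The groups did not overlap. In Affymetrix naming an _x_at probe set holds probes that can also bind other transcripts, and what this one binds was not tested. The representative, 1420822_s_at, is not a plain _at probe set either, and what it binds was not tested.

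Alveolar macrophage markers were the list with the largest correlation in size with Sgpp1 over the arrays, at an r of -0.64. Of 6 tested markers of 8 listed, 0 were called for any compound alone against control. The mean log2(signal + 16) of the 7 that had a probe set, on which the r was computed, was 9.06 to 9.17 with fTyS, 9.02 to 9.16 with FTY, 9.08 to 9.25 with SEW and 8.79 to 9.07 in control. Every SEW array was above every control array, and the fTyS and FTY arrays overlapped only control replicate 1. On the linear scale the summed signals overlapped, at 7447 to 9336 with fTyS, 7662 to 10303 with FTY, 9208 to 10663 with SEW and 7373 to 11211 in control.

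Plasma cell markers also moved with the compounds. Of 6 listed, 5 were tested, and their mean log2(signal + 16) was 10.49 to 10.89 with fTyS, 10.16 to 10.69 with FTY, 10.69 to 10.99 with SEW and 9.29 to 9.56 in control. Every array of a compound alone was above every control array. Of the 5 markers, 3 rose with SEW and 1 each with FTY and fTyS, all against control, and 3 fell in radiation+SEW against SEW. Their r over the 25 arrays was -0.51 with Sgpp1, -0.51 with Sgpp2 and -0.48 with Spns2. The part of alveolar macrophages and of plasma cells in the values of these members was not tested.

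**Figure D3:**
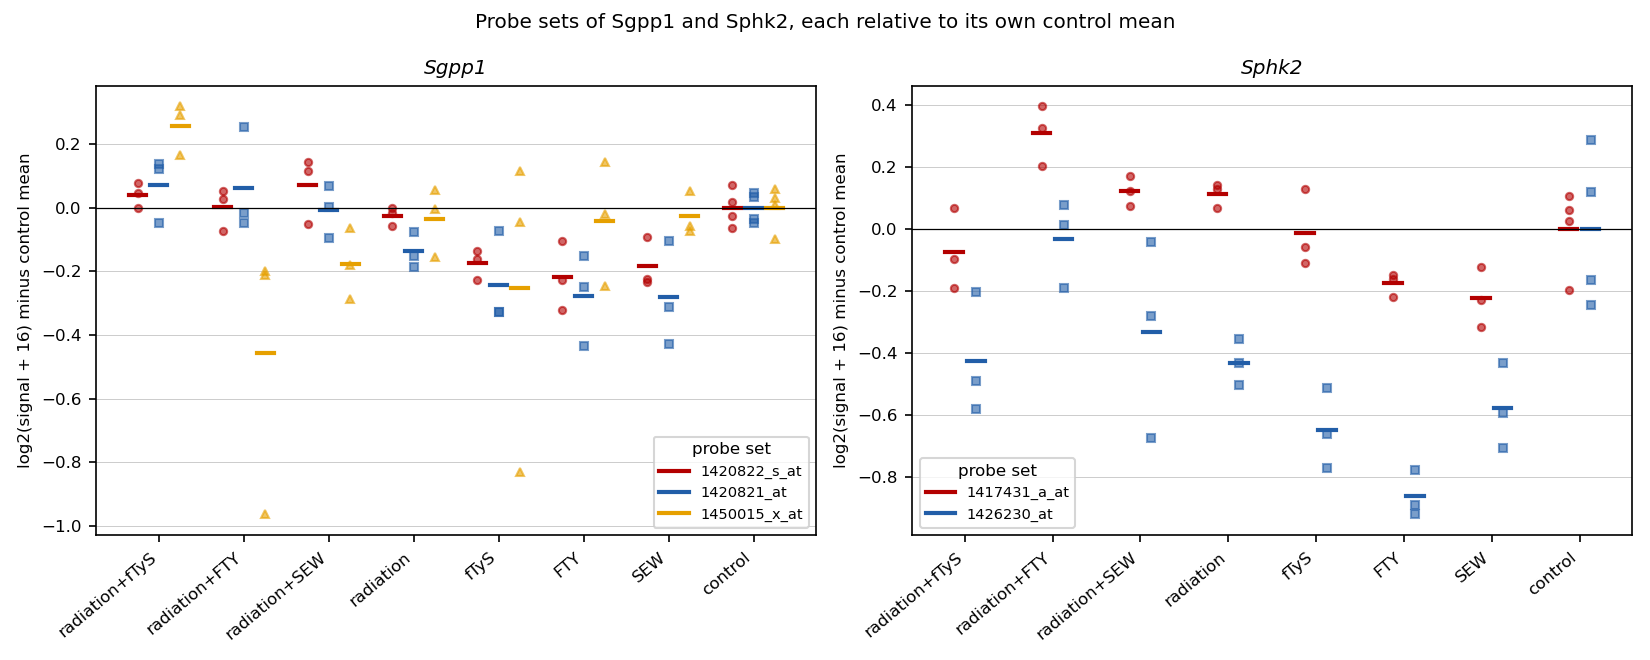
Log2(signal + 16) of the 3 probe sets of Sgpp1 and the 2 of Sphk2 in each array, minus the control mean of the same probe set, by group. Points are arrays and bars group means. The Sgpp1 probe set 1450015_x_at departs from the other 2 with radiation+FTY, and the Sphk2 probe set 1426230_at lies lowest with FTY alone.

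Sphk2, the kinase that also phosphorylates FTY720, was highest in its representative probe set in radiation+FTY lungs and lowest in lungs given SEW or FTY alone. In irradiated lungs its signal was 266, 248 and 299.8 with fTyS, 361, 380.5 and 331 with FTY, 302, 312 and 323 with SEW, and 314, 299.6 and 317 with no compound. In unirradiated lungs it was 273, 314 and 263 with fTyS, 256, 243 and 254 with FTY, 226, 261 and 241 with SEW, and 298, 247, 291 and 309 in control. All 3 radiation+FTY arrays were above every other array in this probe set, and no other group stood clear of its neighbours in the order of means. In the other Sphk2 probe set, 1426230_at, control had the highest mean, 129 against 124 in radiation+FTY lungs, and the 2 groups overlapped.

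Radiation raised Sphk2 where FTY or SEW was also given. Radiation+FTY lungs averaged 358 ± 24.9, against 251 ± 6.78 in FTY lungs (SD, n = 3 each), a log2 fold change of 0.48 (0.31 to 0.66, adjusted p = 0.00184). The value for radiation+SEW against SEW was 0.35 (0.17 to 0.52, adjusted p = 0.00931), and it lost its call without SEW replicate 1 or radiation+SEW replicate 3 (largest adjusted p 0.0529) and in the second Sphk2 probe set (0.24, adjusted p 0.295). For radiation+fTyS against fTyS it was -0.06 (-0.24 to 0.12, adjusted p = 0.839), and for radiation against control 0.11 (-0.05 to 0.28, adjusted p = 0.521). Averaged over the 4 backgrounds, the rise was 0.22 (0.13 to 0.31, adjusted p = 0.00107).

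The interaction of radiation with a compound was not called for the representative of Sphk2: it was 0.37 for FTY (0.13 to 0.61, adjusted p = 0.0601), 0.23 for SEW (adjusted p = 0.192) and -0.17 for fTyS (adjusted p = 0.520). In each compound's own irradiated against unirradiated comparison, Sphk2 and Sgpp1 were the 2 members called with FTY and with SEW, where 14.1% and 17.7% of all genes were called. With fTyS, 0 of 6 were called and 0.456% of all genes. Averaged over the backgrounds, 2 of 6 members and 20.8% of all genes were called.

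The lower of the Sphk2 probe sets, 1426230_at, gave larger differences from control. Its signal was 61.2, 67.5 and 59.6 in FTY lungs and 74.4, 67.8 and 84.3 in fTyS lungs, against 105, 159, 139 and 112 in control. All 6 of these arrays with a compound were below the 4 controls. Against control it changed by -0.86 with FTY (adjusted p = 0.00180), by -0.65 with fTyS (adjusted p = 0.0490) and by -0.58 with SEW (adjusted p = 0.0104), where 4.49%, 0.337% and 15% of all probe sets were called. The representative had values of -0.18, -0.01 and -0.22 there, with adjusted p of 0.246, 0.950 and 0.0651. All 3 FTY arrays of this probe set lay under the filter level of 6.49 log2 units, where signals have no reliable order. So did fTyS replicate 2, SEW replicate 3 and radiation+SEW replicate 1. The size of its FTY, fTyS and SEW values, and of its values with radiation that use the same arrays, is therefore uncertain.

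With radiation, 1426230_at and the representative did not always move the same way. Against control, radiation alone gave -0.43 in 1426230_at (adjusted p = 0.0727) and 0.11 in the representative. Radiation+fTyS against fTyS was 0.22 (adjusted p = 0.564), where the representative had -0.06, and radiation+SEW against SEW, called in the representative, was 0.24 (adjusted p = 0.295). Radiation+FTY against FTY was 0.83 (adjusted p = 0.00219, 12.6% of all probe sets called). The interaction was 1.26 for FTY (adjusted p = 0.00193, 7.36% called), 0.67 for SEW (adjusted p = 0.0348, 13.4% called) and 0.65 for fTyS (adjusted p = 0.0882, not called). Averaged over the backgrounds, radiation raised it by 0.22 (adjusted p = 0.0445, 19.4% called). The r between both Sphk2 probe sets was 0.44 over the arrays. Of the 4 probe sets of members that were not representatives and were above the filter, 2 differed among the 8 groups, 1426230_at and 1420821_at, beside 24.1% of all probe sets.

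Neutrophil markers had the largest positive correlation with Sphk2 over the arrays, at an r of 0.55. All 5 tested markers were called higher in radiation+FTY against FTY. The summed signal of the 6 that had a probe set was 5887 to 15717 against 1909 to 3818. In radiation+SEW against SEW, where Sphk2 was also called, 0 of 5 were called. In radiation against control all 5 were called and Sphk2 was not. Their part in the Sphk2 values was not tested.

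Sphk1, the kinase induced by many growth factors and cytokines in other cells, was called in none of the 20 comparisons. In irradiated lungs its signal was 429.6, 428 and 491 with fTyS, 440.1, 547 and 464 with FTY, 464, 498 and 553 with SEW, and 701, 505 and 578 with no compound. In unirradiated lungs it was 484, 469 and 633 with fTyS, 654, 613 and 502 with FTY, 644, 841 and 653 with SEW, and 894, 469.8, 535 and 511 in control. Control replicate 1 was the highest of all arrays, and the other 3 controls lay below every SEW array. SEW against control was 0.27 (-0.09 to 0.64, adjusted p = 0.299), and without control replicate 1 it was 0.47 with an adjusted p of 0.0248. Radiation+SEW against SEW was -0.48 (-0.86 to -0.09, adjusted p = 0.0817), with no overlap between the groups, and -0.48 with an adjusted p of 0.0218 without that control array. The second probe set, 1420566_at, gave 0.22 for the same comparison (adjusted p = 0.382), and -0.34 for SEW against control (adjusted p = 0.136), so neither direction was shared.

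Sgpl1, the lyase, was also called in none. Its signal was 711, 758 and 623 in radiation+FTY lungs, the group with the highest mean, and 538, 502 and 537 in SEW lungs, the group with the lowest. The other groups lay between 529 and 772, and FTY replicate 3, at 772, was the highest array. Against control, radiation alone gave 0.16 (-0.04 to 0.36, adjusted p = 0.427). Radiation+SEW against SEW gave 0.23 (0.01 to 0.44, adjusted p = 0.137), with no overlap, and radiation averaged over the backgrounds 0.13 (0.03 to 0.24, adjusted p = 0.0711). Without FTY replicate 3 the averaged value was 0.17 with an adjusted p of 0.00652. The second Sgpl1 probe set, 1415893_at, was below the filter at 11.7 to 42.4, and its r with the first was -0.36.

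Spns2, the S1P exporter, was lowest with SEW alone. Its signal was 1184, 1172 and 1215 in SEW lungs, against 1293, 1615, 1762 and 1469 in control. The SEW arrays lay within a narrow band below every control array. The log2 fold change was -0.35 (-0.56 to -0.15, adjusted p = 0.0242). Sgpp1 was the other member called in this comparison, in which 14.6% of all genes were called. In FTY against control, the members called were Sgpp1 and Sgpp2, beside 2.73% of all genes. In fTyS against control 0 of 6 were called, beside 0.178% of all genes. There 2 of the 6 had an unadjusted p under 0.05, beside 1942 of the 12937 genes.

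In FTY lungs Spns2 was 1359, 1332 and 1211, a log2 fold change against control of -0.23 (-0.44 to -0.02, adjusted p = 0.224). fTyS lungs, at 1404, 1372 and 1419, differed by -0.12 (-0.33 to 0.08, adjusted p = 0.547). Both groups overlapped control. With radiation the Spns2 means were 1368 to 1504 over the 4 groups, and radiation+SEW against SEW was 0.30 (0.08 to 0.52, adjusted p = 0.0575). The SEW against control call ended without any 1 of the SEW arrays or without control replicate 2 or 3, with a largest adjusted p of 0.0880.

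Adipocyte markers were higher in SEW lungs than in control on the log2 scale, and skeletal muscle markers varied widely within both groups. Of 6 adipocyte markers listed, 4 were measured and 0 were called in SEW against control. Their summed signal was 7079 to 20436 in SEW lungs and 1929 to 7445 in control, and that of 6 of 6 skeletal muscle markers 1568 to 28025 in SEW lungs and 1315 to 24293 in control. With the per-array means of both lists as covariates, Spns2 in SEW against control was -0.34 with an adjusted p of 0.0590, and Sgpp1 was -0.20 with an adjusted p of 0.0520.

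Apom had signals of 4.57 to 24.5 over the 25 arrays in the brighter of its probe sets and 1.44 to 16.2 in the other, both below the filter. Its r between the probe sets was -0.39. The highest group mean was 20.0 ± 2.36 in radiation+FTY lungs and the lowest 10.6 ± 5.53 in radiation+fTyS lungs (SD, n = 3 each), and all groups next to each other in that order overlapped. In a fit of all 18193 genes without the filter, Apom was called in none of the 20 comparisons, with a smallest adjusted p of 0.165. Apolipoprotein M in plasma comes mostly from liver and kidney, and of 6 liver markers 1 was above the filter in these lungs.

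**Figure D4:**
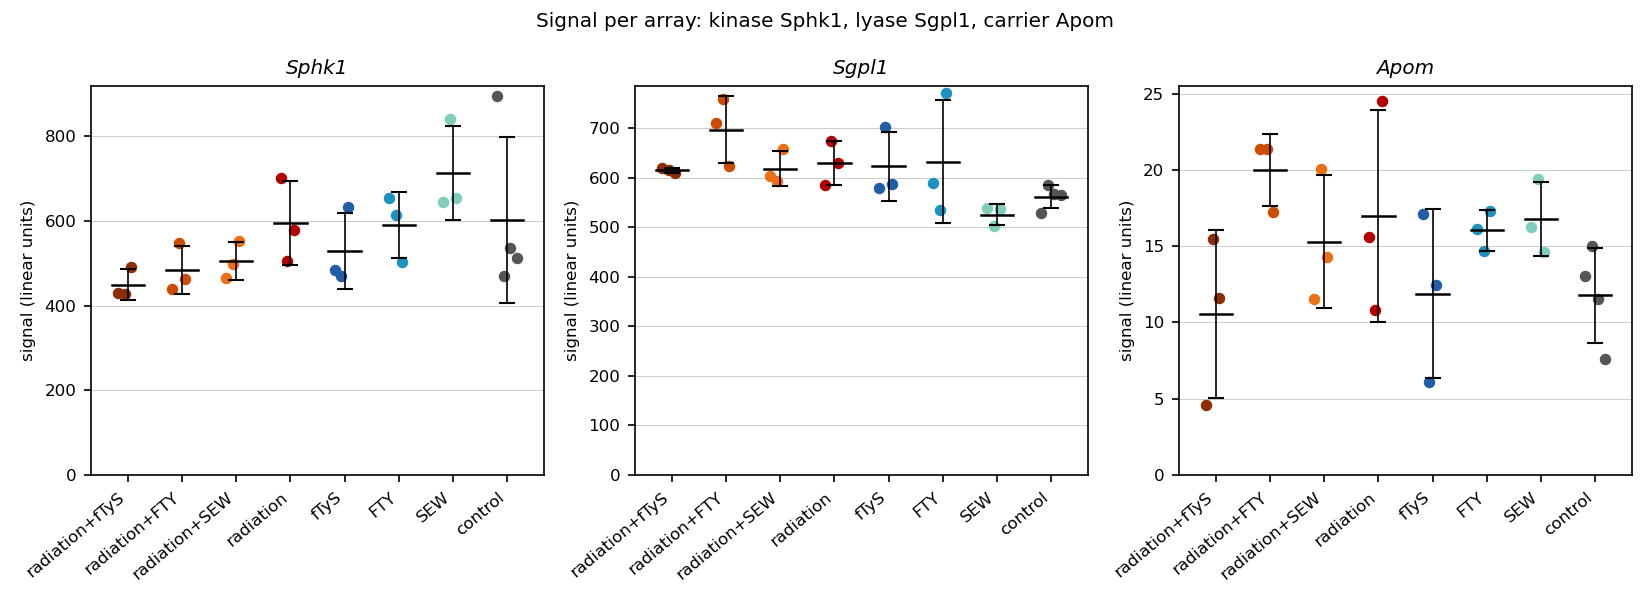
Signal of Sphk1, Sgpl1 and Apom in each of the 25 arrays (linear units), by group, with the group mean and SD as bars. Groups next to each other in the order of means overlap for Sphk1 and Apom, and Apom stays under 25 units in every array.

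The compounds were given at the same dose and schedule, so their groups were set against each other. Without radiation, 0 of 6 members and 0% of all genes were called by limma in fTyS against FTY, and likewise in FTY against SEW, with 769 and 1178 genes at an unadjusted p under 0.05. In fTyS against SEW, 0 of 6 members and 1.55% of all genes were called. There 5 of the 6 members had an unadjusted p under 0.05, beside 2266 of the 12937 genes. The largest of these differences was -0.42 for Sphk1 (-0.81 to -0.03, adjusted p = 0.239). For Sgpp2 it was -0.30 (-0.60 to -0.01, adjusted p = 0.273). The phosphonate and its parent FTY differed in Sgpp2 by 0.02, with an interval from -0.28 to 0.31.

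With radiation, Sphk2 separated fTyS and FTY. It averaged 271 ± 26.2 in radiation+fTyS lungs and 358 ± 24.9 in radiation+FTY lungs (SD, n = 3 each), a log2 fold change of -0.38 (-0.56 to -0.20, adjusted p = 0.0222). It was the 1 of 6 members called, beside 3.95% of all genes. The call ended without radiation+fTyS replicate 1, radiation+FTY replicate 1 or radiation+FTY replicate 2 (largest adjusted p 0.111). The second Sphk2 probe set gave -0.39 there (adjusted p = 0.121). In radiation+fTyS against radiation+SEW and in radiation+FTY against radiation+SEW, limma called 0 of 6 members and 0% of all genes, with 1414 and 1036 genes at an unadjusted p under 0.05. In both of these the member at an unadjusted p under 0.05 was Sphk2, with log2 differences of -0.20 (-0.37 to -0.02) and 0.18 (0.01 to 0.36).

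**Figure D5:**
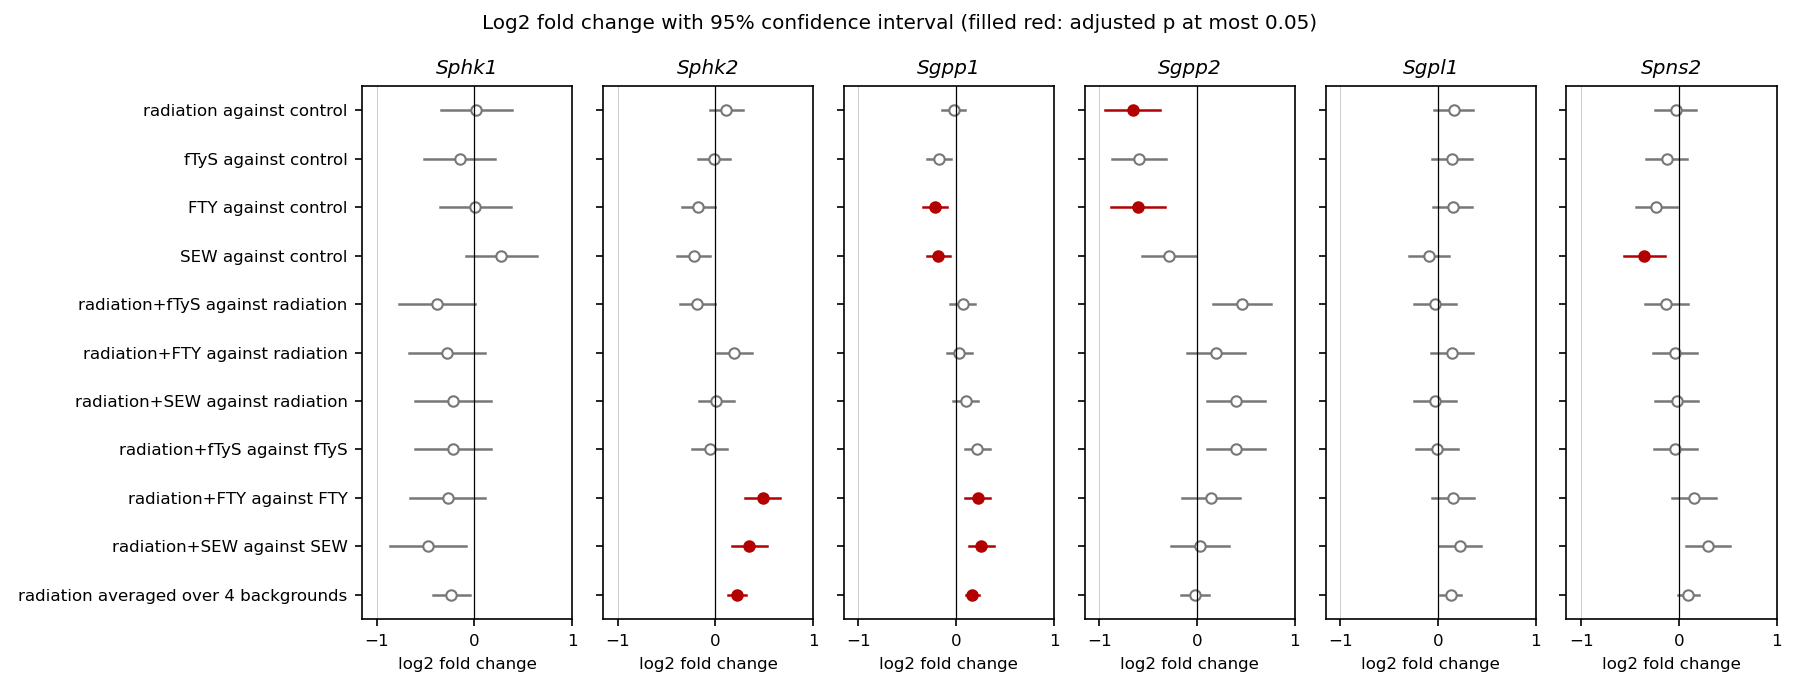
Log2 fold changes with 95% confidence intervals for the 6 tested members in 11 comparisons (the 4 treatments against control, compounds with radiation against radiation, radiation with a compound against the compound, and radiation averaged over 4 backgrounds). Filled red points have an adjusted p of at most 0.05. Sgpp2 is called with radiation and FTY alone, and Sphk2 and Sgpp1 with radiation on top of FTY and SEW.

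Genes on either side of these enzymes were read from 7 lists of 56 genes, of which 43 were tested: S1P receptors, other transporters and carriers, lipid phosphate phosphatases, ceramidases, ceramide synthesis, other fates of ceramide and the steps after the lyase. In radiation against control 0 of 43 were called, beside 4.4% of all genes, and in fTyS against control 0, beside 0.178%. With SEW against control 2 rose and 1 fell, which is 6.98% of the 43 beside 14.6% of all genes. The receptor S1pr1 rose by 0.80 (adjusted p = 0.0462) and the lipid phosphate phosphatase Plpp1 by 0.44 (adjusted p = 0.0196), while Plpp6, a presqualene diphosphate phosphatase, fell by 0.30 (adjusted p = 0.0404). With FTY against control 0 rose and 2 fell, or 4.65% beside 2.73% of all genes. They were the receptor S1pr3 (-0.42, adjusted p = 0.0254) and the desaturase Degs1 of ceramide synthesis (-0.14, adjusted p = 0.0432).

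Radiation on top of SEW raised 4 and lowered 4 of the 43, or 18.6% of them beside 17.7% of all genes. On top of FTY it raised 4 and lowered 6, or 23.3% beside 14.1%. S1pr3 rose in both, by 0.37 (adjusted p = 0.0181) and 0.44 (adjusted p = 0.00923). Plpp1, which removes the phosphate from extracellular S1P, fell by 0.63 with SEW (adjusted p = 0.00269) and by 0.52 with FTY (adjusted p = 0.0118). Acer2, a Golgi ceramidase that releases sphingosine, fell by 0.36 with SEW (adjusted p = 0.0379) and by 0.38 with FTY (adjusted p = 0.0350). S1pr1 fell by 1.01 with radiation+FTY against FTY (adjusted p = 0.0226). On top of fTyS 1 rose, again S1pr3, by 0.53 (adjusted p = 0.0349), or 2.33% of the 43 beside 0.456% of all genes. The median log2 fold change of the 43 was -0.03 for radiation+SEW against SEW and -0.00098 for radiation+FTY against FTY, beside 0.04 over all genes in both.

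Against radiation alone, radiation+SEW raised 1 of the 43, or 2.33% beside 2.48% of all genes. It was Lrp2, the endocytic receptor that takes up apolipoprotein M in kidney (0.68, adjusted p = 0.0382). Radiation+FTY lowered 2, or 4.65% beside 3.02% of all genes, Plpp1 (-0.53, adjusted p = 0.0304) and the acid ceramidase Asah1 (-0.27, adjusted p = 0.0214), and radiation+fTyS changed 0, beside 0.858%. Averaged over the 4 backgrounds 7 of 43 rose and 6 fell, or 30.2% beside 20.8% of all genes, with S1pr3 at 0.31 (adjusted p = 0.000291) and Plpp1 at -0.34 (adjusted p = 0.000896) as the smallest p in each direction.

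For each member, the 3 genes with the highest Pearson's r over the 25 arrays were listed as a description of these arrays, which share groups. They were Gm33248 (0.85), Itga9 (0.82) and Mlc1 (0.82) for Sgpp2, and Csnk1g1 (0.88), Hif1a (0.86) and Dap (0.85) for Sgpp1. For Sphk2 they were Pnpla6 (0.89), Mcrip1 (0.89) and Fam53b (0.87), and for Sphk1 Mcf2l (0.89), Kcnk1 (0.87) and Rgcc (0.86). For Spns2 they were Zfp711 (0.85), Ncald (0.83) and Pxdn (0.83), and for Sgpl1 Rrm1, Panx1 and Lsm4, all at 0.81. None of the 6 members was among the 3 of another.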

How the data were processed

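Lung RNA was hybridised to Affymetrix mouse arrays. The deposited values are linear signal intensities per probe set and array. GCOS, the Affymetrix operating software, is named per the submitters' processing notes, with no version. The summary method, background correction and scaling are not given in the sources used here. The members and gene lists were chosen with earlier results of these data known.

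Names came from GEO's platform annotation: 34945 of 45101 probe sets had 1 symbol, 932 several, 9160 none, and 64 were controls. Intensities became log2(signal + 16), with no further normalization, since the largest median log2 fold change was 0.0516 in size. Genes were kept above the 40th percentile (6.49). One fit of limma 3.58.1 in R 4.3.3 (lmFit, 8 group means, eBayes with trend, 17 residual degrees of freedom) gave 20 two-sided comparisons and an F test, with Benjamini-Hochberg adjustment over 12937 genes. Scripts were tested on simulated data. Named genes were the members, called list genes (at most 6 per list and comparison) and, per member, the 3 genes with the highest r.

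Labels state no batch. Residuals of arrays with the same replicate number correlated at -0.813 to 0.781. All 3 pairs were over 0.1 in 5 of 16 comparisons of 2 groups (radiation against control, fTyS against control, radiation+fTyS against radiation and against fTyS, FTY against SEW), where the numbers were taken to pair arrays. Alternatives were other normalizations, pseudocounts, filters, probe set rules, variance models, array weights, the replicate block, fewer arrays, leaving out each array, and marker covariates.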

Additional observations from a re-analysis of the deposited data

Results flagged for a closer look

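The change with radiation differed between lungs given a compound and lungs given no compound for 2 phosphatases, by the interaction term of the limma fit. For Sgpp2 the radiation effect with fTyS minus the effect without it was 1.06 log2 units (adjusted p = 0.0178). With FTY it was 0.80 (adjusted p = 0.0195), and with SEW 0.69 (adjusted p = 0.0240). For Sgpp1 the difference with SEW was 0.28 (adjusted p = 0.0315), and in its probe set 1450015_x_at it was -0.12. This Sgpp1 call ended with the mean of all its probe sets.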

How the results depend on the processing

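Of the 16 called values, 0 changed sign except in another probe set of the gene: with 1450015_x_at, Sgpp1 was -0.15 for radiation+SEW against SEW, -0.42 for radiation+FTY against FTY, -0.12 for the SEW interaction and -0.023 averaged over 4 backgrounds. Sgpp2 in radiation against control, and Sphk2 in radiation+FTY against FTY and averaged over the backgrounds, kept their calls under every alternative run and with each of the 25 arrays left out. Of 104 uncalled values, 27 were called under some alternative. For FTY against control the members called were 1 of 6 with quantile normalization, with no filter and with eBayes without trend, and 0 with median centring, only the arrays compared, and marker covariates (chosen after seeing the data). For SEW against control they were 1 with median centring and no filter, 0 with only the arrays compared and covariates, and 4 with array weights. For the SEW interaction they were 1 with quantile normalization and only the arrays compared, and 0 with median centring. For the FTY interaction they were 2 with the mean of all probe sets, the replicate block and covariates, 0 with only the arrays compared, and 3 with array weights. Radiation+FTY against FTY had 1 with the mean of all probe sets and only the arrays compared, radiation+SEW against SEW 1 and 5 with the mean and with array weights, and the average over backgrounds 1 and 5. Both had 3 with covariates, and radiation+SEW against SEW 3 with only the arrays compared. Array weights gave 1 for fTyS against control and radiation+fTyS against radiation, 2 for radiation+fTyS against fTyS and the fTyS interaction, 4 for fTyS against SEW and 6 for any difference. They also raised the calls over all genes in the comparisons given in the next paragraph. Counts under alternatives stand here without the share of all genes, so they are not results about the members alone. Radiation+fTyS against fTyS had 1 with the replicate block, and radiation+fTyS against radiation+FTY 0 with only the arrays compared; the block also called Sgpp1 in the FTY interaction (0.24, adjusted p 0.0479), although the check of replicate numbers did not pair FTY with control arrays, and it changed no other count of members. With 1 array left out the counts ran from 0 to 1 for fTyS against control, radiation+fTyS against radiation, radiation+fTyS against radiation+FTY and the fTyS interaction, 0 to 2 for FTY against control and the FTY interaction, 0 to 3 for SEW against control, 0 to 4 for radiation+SEW against SEW and the SEW interaction, 1 to 3 for radiation+FTY against FTY, and 3 to 5 for any difference.

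Over all genes, only the arrays compared left 60 calls in radiation against control (569 with all arrays), 1 in FTY against control (353) and 746 in SEW against control (1889), while weighting the arrays gave 1138, 958 and 4427 there. The cause was not tested. Signals at or under the filter, such as Apom, have no reliable order.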

Other observations

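Over the 25 arrays, Pearson's r between members, given as a description of arrays that share groups, was largest in size between Sphk1 and Sgpl1, at -0.57. It was 0.53 between Sphk2 and Sgpl1, 0.51 between Sgpp1 and Spns2, and -0.50 between Sgpl1 and Sgpp2. The phosphatases Sgpp1 and Sgpp2 had an r of 0.23, and the kinases Sphk1 and Sphk2 one of -0.22.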
